A study of Mus musculus with 2 samples.

Results

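The miR-30 family was followed in exosomes from a pancreatic cancer cell line and from a pancreatic ductal cell line of the mouse. The members were the 7 mature miRNAs that the array design names mmu-miR-30a-5p, mmu-miR-30a-3p, mmu-miR-30b-5p, mmu-miR-30c-5p, mmu-miR-30d-5p, mmu-miR-30e-5p and mmu-miR-30e-3p (written below without mmu-, for the mouse), chosen by name among the 1881 mouse miRNAs on the array. KPC cells were a line grown from tumour tissue of KPC mice, which carry the alleles KrasLSL-G12D/+ and Trp53LSL-R172H/+ together with Pdx1-Cre and form pancreatic ductal adenocarcinoma. In such mice the mutant alleles are switched on where Pdx1-Cre is active, the Pdx1 lineage of the pancreas. MPDC cells were a purchased ductal epithelial line, for which the labels give no genotype and no mutant allele. KPC cells were kept in RPMI-1640 with 20% fetal bovine serum and MPDC cells in DMEM with 10%, so the line and its medium cannot be told apart. Before the supernatants were collected, the study replaced the medium with one holding exosome-free serum. Exosomes, small vesicles that cells release, were collected from the culture supernatants by ultracentrifugation, and their RNA was hybridized to Agilent miRNA arrays with the dye Cy3. There was 1 array for KPC-exosomes and 1 for MPDC-exosomes, both on the same slide. No difference below has a replicate check, and no test across samples was possible. In these bulk preparations, fewer vesicles and less miRNA per vesicle cannot be told apart, and the levels inside the cells were not measured.

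miRNAs are short RNAs that pair with messenger RNAs, mostly through the seed near their 5′ end, and lower the stability and translation of their targets. The 5p miRNAs of the miR-30 family carry the same seed and can therefore share targets, while the rest of their sequence differs. The family is known for holding down genes of the epithelial-to-mesenchymal transition, among them those for the transcription factor SNAI1 and the filament protein vimentin, and for helping pancreatic islet cells keep their epithelial state. Each miR-30 hairpin can give a 5p and a 3p mature miRNA.

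The mature sequences are printed because some members differ from each other by 1 base. They come from RefSeq, build GRCm38.p6, whose table matched 5 of the 7 members and holds 1679 mature miRNAs. Capitals mark the seed, bases 2 to 8 counted from the 5′ end.

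miR-30a-5p: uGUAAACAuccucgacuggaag
miR-30c-5p: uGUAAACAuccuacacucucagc
miR-30e-5p: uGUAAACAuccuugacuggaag
miR-30a-3p: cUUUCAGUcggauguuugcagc
miR-30e-3p: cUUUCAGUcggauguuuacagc

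miR-30b-5p and miR-30d-5p are named only. The seed GUAAACA stands in 4 miRNAs of the table, the 3 5p members printed here and miR-384-5p. The seed UUUCAGU stands in 2, which are the 2 3p members. miR-30a-5p and miR-30e-5p differ by 1 substitution, C13U, outside the seed, where the base of the first-named miRNA comes first and positions are counted from 1 at the 5′ end. The 3p pair miR-30a-3p and miR-30e-3p also differ by 1 substitution, G18A. miR-30c-5p differs from miR-30a-5p at 5 of the 22 positions compared.

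The probes pair with the 3′ part of each miRNA, so the longest probes of the most similar members are set side by side, 5′ to 3′ as the files give them. Capitals mark the base at which the members of a pair differ. In the first pair a 5p member of chromosome 1 meets one of chromosome 4, in the second the 3p members of the same hairpins meet, and in the third miR-30a-5p meets the member whose difference stood farthest from the others.

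miR-30a-5p probe: cttccagtcGaggatgt
miR-30e-5p probe: cttccagtcAaggatgt
miR-30a-3p probe: gctgCaaacatccgact
miR-30e-3p probe: gctgTaaacatccgactg
miR-30a-5p probe: cttccagtcgAggatgt
miR-30d-5p probe: cttccagtcgGgga

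Every probe of a member with a printed mature sequence had 0 mismatches to that sequence. The probes of miR-30a-5p and miR-30e-5p had 1 mismatch to each other's miRNA, and so had those of miR-30a-3p and miR-30e-3p. The miR-30d-5p probes had 1 mismatch to miR-30a-5p and 2 to miR-30e-5p. How much signal a probe took from a sister miRNA was not tested.

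Each array held 58594 spots, 56430 of them for miRNAs. A probe was detected where its total signal, background-subtracted and in arbitrary intensity units, exceeded 3 times its scanner error, and the detected probes of each miRNA were added up to give its signal. By this rule 772 miRNAs (41.0%) were detected in KPC-exosomes, 1031 (54.8%) in MPDC-exosomes and 726 in both. The median difference of these 726 was -1.37 on the log2 scale before normalization, KPC-exosomes minus MPDC-exosomes as in every difference below. After quantile normalization, which gives both arrays the same distribution of signals, it was 0.53. The 4 spike-in controls differed by 0.03 on average before normalization, from -0.31 to 0.38. Values are therefore given on both scales.

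All 7 members were detected on both arrays, and all 7 had the lower signal in KPC-exosomes before normalization. So had most miRNAs: at least 76.4% of the 726 lay at or below the difference of miR-30d-5p, the member nearest to 0. The members did not differ by the same amount. The gap was widest for the 3 miRNAs miR-30c-5p, miR-30e-5p and miR-30e-3p, narrower for miR-30a-5p, miR-30a-3p and miR-30b-5p, and narrowest for miR-30d-5p. After quantile normalization, 3 members (42.9%) were called at least 2-fold lower in KPC-exosomes and 1 (14.3%) at least 2-fold higher, and 3 were not called. Of the 726 miRNAs detected on both arrays, 21.3% were called lower and 40.4% higher by the same rule. Over all 1881 miRNAs the shares were 24.5% lower and 18% higher. Before normalization 6 members were at least 2-fold lower, 0 higher and 1 neither, where 58.8% of the 726 were lower and 10.2% higher, and 38.9% and 6.38% of all 1881.

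**Figure D1:**
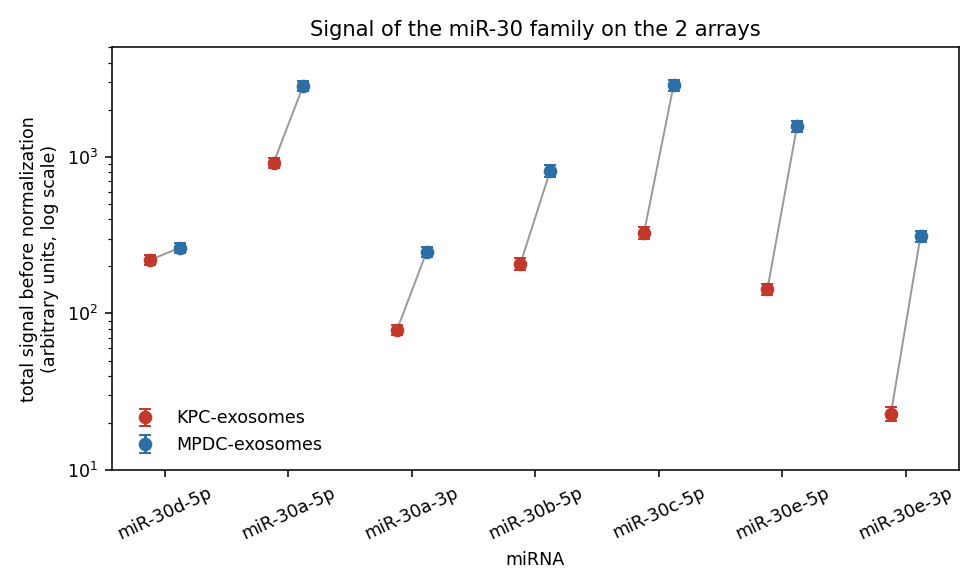
Total signal of each miR-30 family member before normalization, on a log axis in arbitrary units, in KPC-exosomes (red) and MPDC-exosomes (blue), with 1 array each. Error bars are the scanner error and grey lines join the same miRNA. All 7 members are lower in KPC-exosomes, from 1.20-fold for miR-30d-5p to 13.7-fold for miR-30e-3p, as are at least 76.4% of the miRNAs detected on both arrays.

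Among the 5p members, mmu-miR-30e-5p gave a signal of 143 ± 11.9 (scanner error) in KPC-exosomes and 1571 ± 130.0 in MPDC-exosomes. This was 11.0-fold lower in KPC-exosomes, a log2 difference of -3.46 with a scanner error of 0.17. After quantile normalization the difference was -1.81, or 3.52-fold lower. miR-30e-5p is one of the 5p sister miRNAs with the shared seed, and its hairpin lies beside that of a miR-30c. Its 17-base probe had 15 spots per array, of which 15 and 14 remained once outlier spots were left out. Their processed signal ran from 379 to 442 with a median of 405 in KPC-exosomes, and from 4435 to 4710 with a median of 4600 in MPDC-exosomes. The spots of the 2 arrays lay far apart.

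mmu-miR-30c-5p gave 326 ± 28.0 in KPC-exosomes and 2862 ± 245 in MPDC-exosomes. The log2 difference was -3.13 with an error of 0.17, 8.77-fold lower, and -1.61 after quantile normalization, 3.06-fold lower. This miRNA is made by hairpins on 2 chromosomes, and the array measures their common product.

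mmu-miR-30b-5p gave 208 ± 17.8 in KPC-exosomes and 812 ± 70.1 in MPDC-exosomes. It was 3.90-fold lower in KPC-exosomes, a log2 difference of -1.96 with an error of 0.18, and its difference after quantile normalization was -0.26. mmu-miR-30a-5p gave 912 ± 65.3 and 2845 ± 200.3. It was 3.12-fold lower in KPC-exosomes, -1.64 with an error of 0.14, and -0.17 after quantile normalization. Both lay well under the 2-fold threshold once normalized.

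mmu-miR-30d-5p, a 5p sister whose hairpin neighbours that of miR-30b, stood apart from the others. It gave 219 ± 15.8 in KPC-exosomes and 262 ± 18.9 in MPDC-exosomes. The log2 difference before normalization was -0.26 with an error of 0.15, 1.20-fold lower. After quantile normalization it was 1.49, or 2.80-fold higher in KPC-exosomes, the reverse direction. On its 14-base probe the processed signal of the spots ran from 431 to 479 in KPC-exosomes, with a median of 448, and from 531 to 578 in MPDC-exosomes, with a median of 561. The spots did not overlap, although the difference was under 2 of the scanner errors, which are wider than the spread between spots.

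Of the 3p members, mmu-miR-30e-3p gave 22.8 ± 2.31 in KPC-exosomes and 312 ± 25.7 in MPDC-exosomes. It was 13.7-fold lower in KPC-exosomes, a log2 difference of -3.77 with an error of 0.19, and 3.95-fold lower after quantile normalization, -1.98. mmu-miR-30a-3p gave 78.6 ± 6.04 and 248 ± 18.7. It was 3.15-fold lower before normalization, -1.66 with an error of 0.16, and differed by 0.10 after it.

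Ordered by their difference before normalization, the members fell into 3 steps. The lowest step held miR-30e-3p, miR-30e-5p and miR-30c-5p, the middle step miR-30b-5p, miR-30a-3p and miR-30a-5p, and miR-30d-5p formed the top alone. Neighbours within a step lay at most 1.35 scanner errors apart, so the order of neighbours is not resolved. The ends of a step were not set against each other. In the lowest step they stood at -3.77 for miR-30e-3p and -3.13 for miR-30c-5p. The gap from miR-30c-5p to miR-30b-5p was 1.17 on the log2 scale, 4.72 errors, and the gap from miR-30a-5p to miR-30d-5p was 1.38, 6.71 errors. These errors are the scanner's estimates and follow the signal of a probe. The 17-base miR-30a-5p probe had 60.2 on 602 in KPC-exosomes, and the 18-base miR-30c-5p probe 241 on 2411 in MPDC-exosomes. They are not the spread between spots or between preparations, and a gap counted in errors is not a test.

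Quantile normalization added 1.47 to 1.79 to the members' differences and left the distance between the lowest and the highest member nearly as it was, 3.52 before and 3.47 after. The family's median was -1.96 before and -0.26 after, beside -1.37 and 0.53 for all 726 miRNAs. On both scales 6 of the 7 members lay below that median and miR-30d-5p lay above it. Among the 726, miR-30e-3p stood at percentile 11.6 before normalization and 10.74 after, miR-30e-5p at 14.6 and 12.8, and miR-30c-5p at 17.4 and 14.7. miR-30b-5p stood at 35.5 and 32.2, miR-30a-3p at 42.3 and 39.3, and miR-30a-5p at 42.8 and 33.9. miR-30d-5p stood at 76.4 and 69.3. The members thus spread from percentile 11.6 to 76.4 before normalization and from 10.74 to 69.3 after it, and did not form a group at one place.

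**Figure D2:**
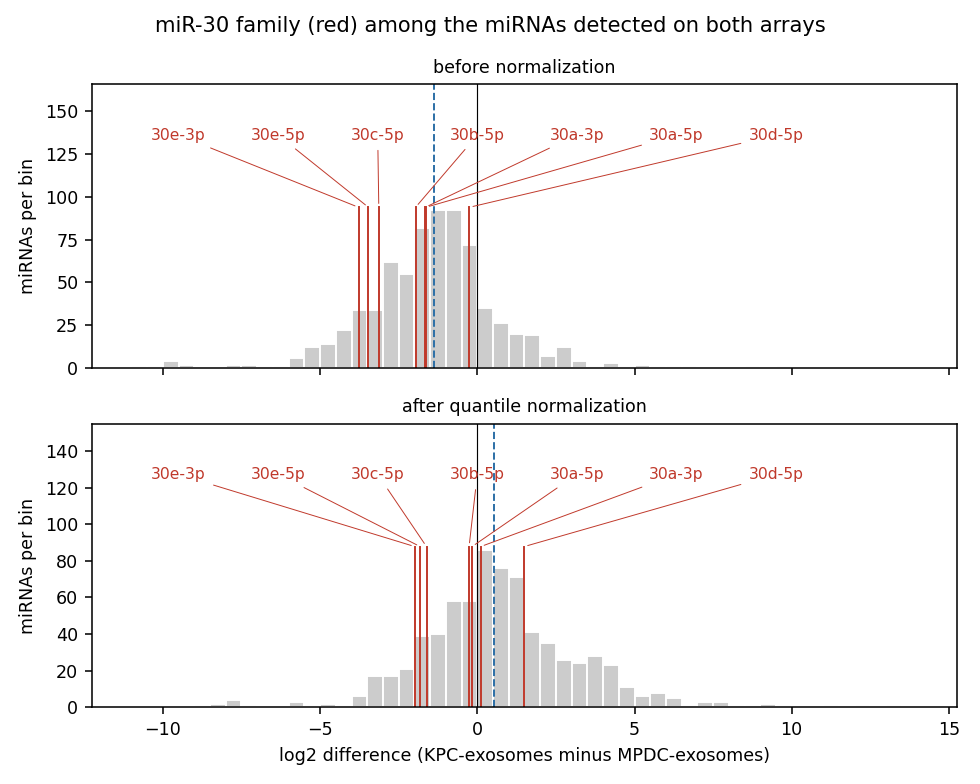
Histograms of the log2 difference, KPC-exosomes minus MPDC-exosomes, for the 726 miRNAs detected on both arrays, before (top) and after (bottom) quantile normalization, in bins of 0.5. Red lines mark the 7 miR-30 members and the dashed blue line the median of the 726, -1.37 at the top and 0.53 at the bottom. In both panels 6 members lie left of the median and miR-30d-5p right of it.

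The probes of each member gave nearly the same difference. All 15 were detected on both arrays, and 0 of their spots were saturated. On each of the 15 the spots of the 2 arrays did not overlap once outlier spots were left out. The share over all probes of the array was not computed, so this count is not shown to be particular to the family. Spots of an array come from the same preparation and are not replicates of it. The 3 miR-30a-5p probes of 15, 16 and 17 bases gave differences of -1.67, -1.74 and -1.60 before normalization, and the miR-30c-5p probes of 17 and 18 bases gave -3.12 and -3.14. The miR-30d-5p probes of 13 and 14 bases gave -0.24 and -0.27. Shorter and longer probes of a member differed by less than their scanner errors.

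The range between the probes of a member ran from 0.02 to 0.20, with a median of 0.05. Over the 602 miRNAs with at least 2 probes detected on both arrays the median range was 0.18 and the 75th percentile 0.53. Probes of opposite sign were found for 52 of the 602 and for 0 members. The 602 were not matched to the members by signal, so the narrow range is not shown to be particular to the family. The least precise probe was the 17-base probe of miR-30e-3p, with a total signal of 4.36 ± 1.03 in KPC-exosomes. Its 15 spots there ran from 8.48 to 23.8 with a median of 16.8, a coefficient of variation of 30.8%, and 8 of them were well above background. Its difference of -3.86 had an error of 0.37, and the longer probe gave -3.75.

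**Figure D3:**
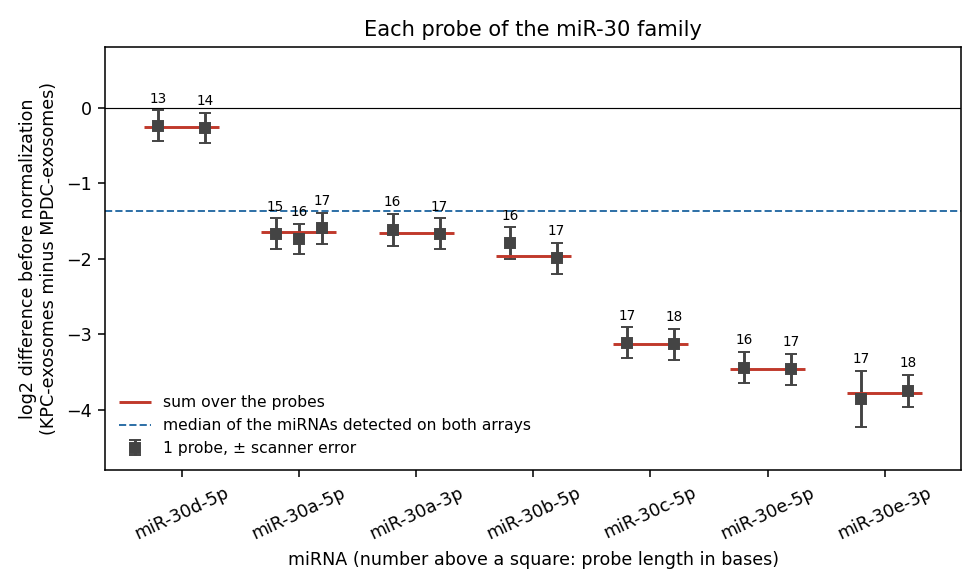
Log2 difference before normalization, KPC-exosomes minus MPDC-exosomes, for each of the 15 probes of the miR-30 family (squares, bars are the scanner error, numbers give the probe length in bases). Red lines show the value from the sum over a miRNA's probes and the dashed blue line the median of the 726 miRNAs, -1.37. Probes of 1 miRNA lie within 0.20 of each other, while the members spread from -3.77 to -0.26.

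The hairpins of the family lie in pairs on 3 chromosomes, and the array files place the probes on mm9. The miR-30a-5p probes lie at chr1:23279119-23279134 and the miR-30a-3p probes at chr1:23279160-23279175. The miR-30c-5p probes lie at chr1:23298558-23298575, the hairpin Mir30c-2, and at chr4:120442160-120442177, the hairpin Mir30c-1. miR-30e-5p lies at chr4:120445233-120445248 and miR-30e-3p at chr4:120445274-120445290. miR-30b-5p lies at chr15:68169003-68169018 and miR-30d-5p at chr15:68172790-68172802. These spans are those of the files, which for all members except miR-30c-5p are 1 base shorter than the longest probe. In the RefSeq genes of GRCm38.p6, Mir30c-1 and Mir30e lie inside Nfyc, the gene of a subunit of the transcription factor NF-Y, and Mir30e also overlaps Mir30f. The table lists no gene around the other 4 hairpins.

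The pairs behaved differently. On chromosome 15, where the 5p probes of Mir30b and Mir30d lie 3784 bases apart, the difference of miR-30d-5p exceeded that of miR-30b-5p by 1.71 with an error of 0.23 before normalization and by 1.75 after it. Relative to its neighbour, miR-30d-5p was thus 3.26-fold higher in KPC-exosomes than in MPDC-exosomes. On chromosome 4, where Mir30c-1 and Mir30e lie 3071 bases apart, the difference of miR-30e-5p minus that of miR-30c-5p was -0.33 with an error of 0.24, and -0.20 after normalization. On chromosome 1, where Mir30a and Mir30c-2 lie 19441 bases apart, the difference of miR-30c-5p minus that of miR-30a-5p was -1.49 with an error of 0.23, and -1.45 after normalization. Since miR-30c-5p comes from chromosomes 1 and 4 alike, the share of each hairpin in its signal cannot be told apart.

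Where both arms of a hairpin were members, their differences lay within 1.24 scanner errors of each other before normalization. The difference of miR-30a-3p minus that of miR-30a-5p was -0.02 with an error of 0.21 before normalization and 0.27 after it. For miR-30e-3p minus miR-30e-5p it was -0.31 with an error of 0.25, and -0.17 after normalization. Both arms of Mir30e had the wider gap between the preparations than those of Mir30a. The difference of miR-30e-5p minus that of miR-30a-5p was -1.82 with an error of 0.22, and for the 3p arms it was -2.12 with an error of 0.24. These are the pairs of miRNAs that differ by 1 base.

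The other arms of the family's hairpins are not members, and in KPC-exosomes each was detected by only some of its probes or by none. The 3p arms of the Mir30c hairpins share a seed and are printed because their differences had opposite signs before normalization, with the seed in capitals.

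miR-30c-1-3p: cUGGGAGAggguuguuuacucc
miR-30c-2-3p: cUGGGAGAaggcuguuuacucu

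miR-30c-1-3p, on chromosome 4 beside Mir30e, gave 9.37 ± 1.04 in KPC-exosomes against 51.7 ± 4.86 in MPDC-exosomes, a log2 difference of -2.46 with an error of 0.21 before normalization and -0.73 after it. miR-30c-2-3p, on chromosome 1 beside Mir30a, gave 87.2 ± 8.78 and 69.0 ± 6.35, a difference of 0.34 with an error of 0.20 before normalization and 2.09 after it. The difference of the Mir30c-2 arm exceeded that of the Mir30c-1 arm by 2.80 with an error of 0.29. Both exceeded the difference of their common 5p product, by 0.67 with an error of 0.27 for miR-30c-1-3p and by 3.47 with an error of 0.26 for miR-30c-2-3p. Each of the 2 3p sums rests on 1 detected probe in KPC-exosomes and 2 in MPDC-exosomes, so unlike probe sets are compared. The probes of miR-30c-2-3p went opposite ways, which these errors do not include.

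miR-30b-3p gave 3.76 ± 0.67 and 25.5 ± 1.87, a difference of -2.76 with an error of 0.28 before normalization and -0.76 after it. Its difference minus that of its 5p arm was -0.80 with an error of 0.33. The miR-30b-3p sum rests on 2 detected probes in KPC-exosomes and 3 in MPDC-exosomes, so unlike probe sets are compared here too. The 20-base and 21-base probes, detected on both arrays, gave -2.38 with an error of 0.41 and -2.79 with an error of 0.38. miR-30d-3p was detected only in MPDC-exosomes, at 1.56 ± 0.49 by 1 of its 4 probes, close to the limit of detection. miR-30f, and miR-384-5p with its 3p arm, were not detected on either array. miR-384-5p is the non-member that carries the family's 5p seed.

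**Figure D4:**
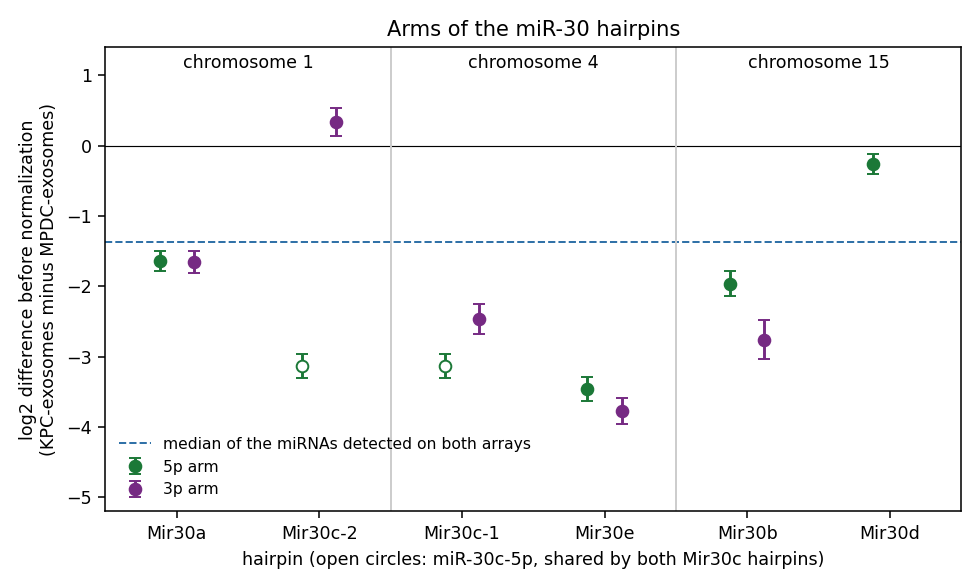
Log2 difference before normalization, KPC-exosomes minus MPDC-exosomes, for the 5p arm (green) and 3p arm (purple) of each miR-30 hairpin, grouped by chromosome, with the scanner error. Open circles are miR-30c-5p, which both Mir30c hairpins give, the dashed line is the median of the 726 miRNAs, and miR-30d-3p, detected only in MPDC-exosomes, is not drawn. The arms of Mir30a lie together, as do those of Mir30e, while miR-30c-2-3p (0.34) and miR-30d-5p (-0.26) stand above the rest.

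Lists of marker miRNAs were set beside the family, since miR-30 is itself linked to the epithelial state. All 7 epithelial miRNAs, the miR-200 family with miR-203-3p and miR-205-5p, were detected in MPDC-exosomes and 5 of them in KPC-exosomes, where miR-203-3p and miR-205-5p were not. Their signals summed to 98.8 in KPC-exosomes, against 1781 in MPDC-exosomes. For the 5 seen on both arrays the median difference was -3.50 before normalization and -1.47 after it, beside -1.96 and -0.26 for the miR-30 family. After quantile normalization 5 of the 7 were called lower in KPC-exosomes and 0 higher, the 2 miRNAs seen only in MPDC-exosomes included. Over all 1881 miRNAs 24.5% were called lower and 18% higher. miR-200c-3p, which represses the transition factors Zeb1 and Zeb2, gave 4.58 and 991.

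Of the 5 pancreas miRNAs, miR-217-5p was detected only in KPC-exosomes (60.9) and miR-148a-3p only in MPDC-exosomes (1189.7). miR-375-3p, miR-216a-5p and miR-216b-5p, of islet and acinar cells, were detected on neither array. Of the 6 mesenchymal miRNAs 0 were detected in KPC-exosomes and 6 in MPDC-exosomes, with a summed signal of 293, and 6 were called lower. Of the 7 haematopoietic miRNAs 5 were detected on each array and 4 on both, with summed signals of 279 and 475 and a median difference of -2.16 before normalization and -0.33 after it. Quantile normalized, miR-142a-3p and miR-142a-5p made up the 2 of the 7 called higher, and 1 was called lower. Marker miRNAs of epithelial and of mesenchymal cells were thus both weaker in KPC-exosomes, while the haematopoietic list was split. Before normalization 3 of its 4 miRNAs seen on both arrays were at least 2-fold lower in KPC-exosomes. Their median of -2.16 stood beside -1.37 for the 726 miRNAs detected on both arrays. The 4th, miR-142a-3p, was higher, at 188 in KPC-exosomes against 29.1 in MPDC-exosomes. miR-142a-5p was detected only in KPC-exosomes (28.4) and miR-150-5p only in MPDC-exosomes (109). Across the array 24.5% of the 1881 miRNAs were called lower after quantile normalization. Fewer miRNAs were detected in KPC-exosomes (772) than in MPDC-exosomes (1031). The part of the cell types, the serum and the amount of vesicle RNA in the miR-30 differences was not tested.

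The top member and the set of the 3 lowest were the same under each processing, while the order inside the steps and the sign of several members were not. Over 14 ways of summarising and scaling the arrays miR-30d-5p was the highest member in 14. miR-30c-5p, miR-30e-5p and miR-30e-3p were the 3 lowest in 14. These 14 are not independent checks. Settings that only scale an array by a constant cannot change the order found without normalization, and the processed signal gave practically the same contrasts. The deposited values, the other floor and the sum over all probes nearly repeated the quantile-normalized result. The count thus rests on fewer than 14 separate outcomes. The 3 lowest members and miR-30b-5p had a difference below 0 in all 14. Their ranges were -3.16 to -1.31 for miR-30c-5p, -3.49 to -1.64 for miR-30e-5p, -3.80 to -1.20 for miR-30e-3p and -1.99 to -0.14 for miR-30b-5p. The other 3 crossed 0. miR-30a-5p ran from -1.67 to 0.18, miR-30a-3p from -1.68 to 0.17 and miR-30d-5p from -0.28 to 1.57. The distance between miR-30d-5p and its neighbour miR-30b-5p stayed between 1.35 and 1.78, and that between miR-30c-5p and miR-30a-5p between -1.63 and -1.22. miR-30e-5p minus miR-30c-5p ran from -0.35 to -0.19. The contrasts between arms changed sign: miR-30a-3p minus miR-30a-5p ran from -0.02 to 0.27, and miR-30e-3p minus miR-30e-5p from -0.31 to 0.47, where the value above 0 came with normexp background correction.

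**Figure D5:**
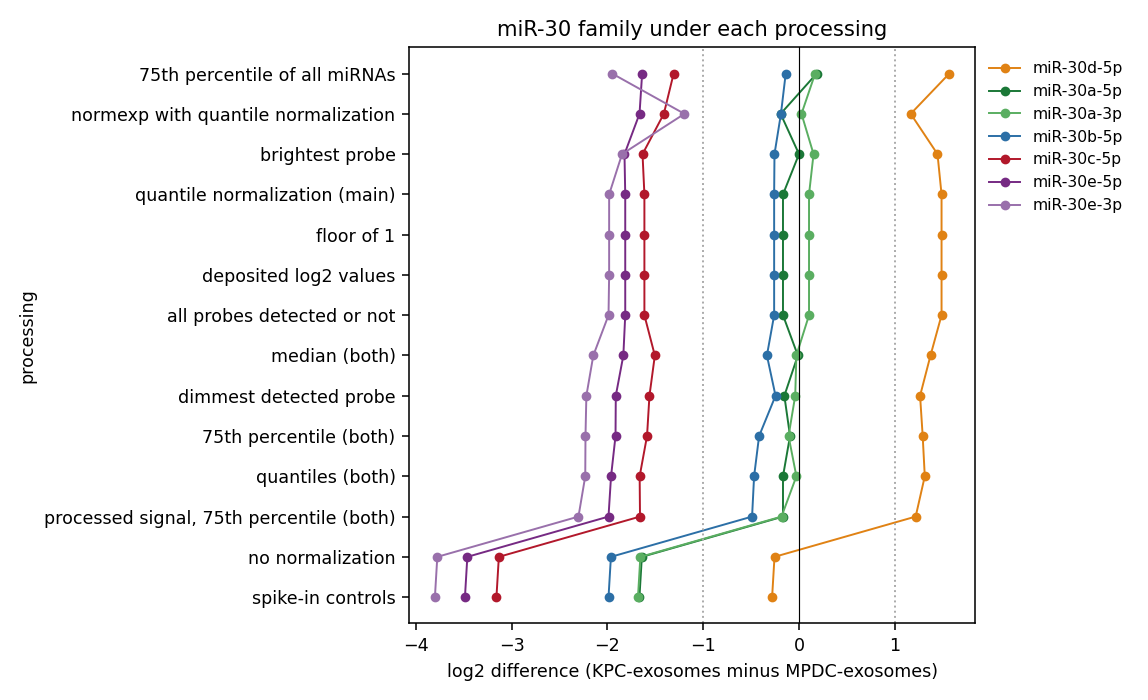
Log2 difference, KPC-exosomes minus MPDC-exosomes, of each miR-30 member under 14 ways of processing the arrays, sorted by the mean of the members. Dotted lines mark a 2-fold difference in either direction, and "both" means the miRNAs detected on both arrays. miR-30d-5p is the rightmost point in every line, and miR-30c-5p, miR-30e-5p and miR-30e-3p are the 3 leftmost, while the whole family shifts left where the arrays are not scaled to each other or are scaled to the spike-ins.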

How the data were processed

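The deposited scanner files, written by Agilent Feature Extraction (version 10.7.1.1 by their header, 9.1 by the submitters' processing notes), hold signals and errors as intensity on a linear scale, background-subtracted within each array and not scaled between arrays. Normalized log2 values, 1 per miRNA, were deposited as well. Here, total signals of probes above 3 errors were summed per miRNA, with errors added in quadrature and a floor of 0.1 for undetected miRNAs. The log2 values were then quantile normalized between the arrays, with 21 control features included. This gave the deposited log2 values within 1.11e-05. Quantile normalization removes any difference in total miRNA. A miRNA was called when detected on at least 1 array and at least 2-fold different, the filter of the study. With 1 array per group no test was made, and differences were set against the scanner error. The precision is limited by the number of arrays.

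The text names the 7 members, the other arms and same-seed miRNAs of the array, and the epithelial, pancreas, mesenchymal and haematopoietic lists. The members, lists and alternatives were chosen with earlier results of these data known. The alternatives were no normalization, scaling by the median or 75th percentile of miRNAs detected on both arrays or by the 75th percentile of all, by spike-ins, quantiles taken over miRNAs detected on both arrays, the deposited values, the processed signal, normexp with an offset of 50, the brightest, the dimmest or all probes, a floor of 1, detection on both arrays, 4-fold, and 2 scanner errors. The tools were Python 3.11.15 (numpy 2.4.6, matplotlib 3.10.9, pandas 2.3.3) and limma 3.58.1 in R 4.3.3. The labels give 0.5 ug of RNA per labelling, but with a kit for cRNA, whereas the study describes labelled RNA on a miRNA chip, so that amount may not be that of these arrays.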

Additional observations from a re-analysis of the deposited data

How the results depend on the processing

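The number of miR-30 members called higher was 1 after quantile normalization and 0 with a 4-fold threshold, without normalization and with scaling to the spike-in controls, and the number called lower was 3, against 0 with a 4-fold threshold and 6 without normalization and with the spike-in controls. miR-30d-5p, at 1.49, reversed to -0.26 without normalization and to -0.28 with the spike-in controls. The median of the 7 members, -0.26, was -1.96 without normalization, -1.99 with the spike-in controls, -0.49 with the processed signal and -0.47 with quantiles taken from miRNAs detected on both arrays only. Relative to the median of those miRNAs the family's median was -0.79, against -0.59 without normalization, with the processed signal, with the spike-in controls and with scaling by the median or either 75th percentile, -0.47 with quantiles taken from these miRNAs only and -0.35 with normexp. Of the other values of these 4 results, 40 kept their side and stayed near the reported value. miR-30e-3p was the lowest member in 13 of 14 settings and not under normexp. Settings that only scale an array by a constant cannot change this order. No paired analysis was possible because there was 1 array per group, and no replicate could be left out. Signals of a few units, as for miR-30b-3p and miR-30d-3p, lie close to background. The causes of these shifts were not tested.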

Other observations

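The 2 probes of miR-30c-2-3p went opposite ways, unlike those of any family member. Its 19-base probe gave 87.2 ± 8.78 in KPC-exosomes against 61.4 ± 6.22 in MPDC-exosomes, a difference of 0.51 with an error of 0.21 before normalization. Its 18-base probe gave 1.62 ± 0.95 in KPC-exosomes, which was not detected, and 7.60 ± 1.26 in MPDC-exosomes. The spots of the shorter probe ran from 0.20 to 11.5 in KPC-exosomes and from 18.4 to 36.1 in MPDC-exosomes, while those of the longer probe ran from 278 to 340.0 and from 205 to 240. The sign of this arm before normalization therefore rests on the longer probe. For miR-30c-1-3p, the 19-base and 18-base probes were both lower in KPC-exosomes, at 9.37 against 47.9 and at 0.79, which was not detected, against 3.79.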
